A study of Mus musculus with 21 samples.

Results

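Glycolysis and the pentose phosphate pathway were followed through 36 listed genes, from the glucose transporters to the enzymes that interconvert sugar phosphates, in RNA-seq values of Ba/F3 cells expressing JAK2-V617F. The genes were listed by name for their place in the pathway, with earlier results of these data known, and the rule itself uses no measured value. Of the 36 listed genes, 32 were held by all 4 deposited tables, which together list 14698 genes and share 9973. No value for Aldoc, Ldhb, Slc16a3 or Pdk2 was found in any of the 4 tables, and these genes were not analysed here. Ba/F3 is a murine pro-B cell line that depends on interleukin-3, and the human mutant kinase, introduced by retroviral gene transfer, replaces that need. All 21 libraries, controls included, came from cells with this allele, so no group without JAK2-V617F enters the values below, and the sources used here do not say whether the line was 1 clone.

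The 21 libraries formed 7 groups of 3. DMSO_treated, Ruxo_treated and CHZ_treated cells were kept for 6 h with DMSO, 1 μM ruxolitinib or 1 μM CHZ868. Ruxolitinib is a type I inhibitor of JAK1 and JAK2, which binds the active form of the kinase, and CHZ868 is a type II inhibitor of JAK2, which binds the inactive form. Ruxo_wash and CHZ_wash cells had 1 h with 1 μM inhibitor, were washed with PBS and then stayed 6 h without inhibitor. DMSO_wash and DMSO_wash_exp3 were the DMSO washout controls of the ruxolitinib and of the CHZ868 experiment. The comparisons ask how the RNA of each enzyme stood while JAK2 was inhibited and after the inhibitor had been removed.

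Of 12 markers of a pro-B, interleukin-3-dependent line, 6 (Il3ra, Csf2rb, Csf2rb2, Ptprc, Cd79a and Cd79b) were listed in every table and 6 (Vpreb1, Igll1, Pax5, Ebf1, Rag1 and Dntt) in none. Their summed level was 1698 to 3467 CPM per library in 3 tables and 329 to 420 CPM in the ruxolitinib washout table. None of the 4 T cell and 4 mast cell markers was listed in any table. Of 4 erythroid markers, Klf1 and Epor were listed in every table and Hbb-bt in the ruxolitinib washout alone (28.6 to 163 CPM summed). Of 4 macrophage markers, Csf1r was listed in every table and Adgre1 and Lyz2 in the ruxolitinib washout (2.48 to 26 CPM summed), and of 3 fibroblast markers only Col1a1 was listed, in the ruxolitinib washout (0.611 to 2.13 CPM). At 6 h the erythroid sum was 136 to 163 CPM in CHZ_treated and 140 to 150 CPM in Ruxo_treated against 69.9 to 77 CPM in DMSO_treated, and the pro-B sum 2613 to 2872 CPM in CHZ_treated against 3348 to 3414 CPM in DMSO_treated. The part of these markers in the results below was not tested. The reads recovered from the low values of 3 tables came to between 7880220 and 10673060 per library (15 libraries), and the depth of the ruxolitinib washout libraries is unknown. Over these 15 libraries the reads behind a member went lowest for Pfkfb4, with 87 to 310 reads per library. Ruxo_treated replicate 2 stood apart from replicates 1 and 3, with median absolute differences over genes of 0.205 and 0.204 log2 units against 0.098 between the other two. DMSO_wash_exp3 replicate 3 likewise differed from its partners by 0.176 and 0.234, against 0.101 between them. The mitochondrially encoded genes took 4.94 to 6.38% of the listed CPM in CHZ_treated, 1.37 to 1.43% in DMSO_treated, 3.53% in Ruxo_treated replicate 2 against 1.7 and 1.73% in replicates 1 and 3, and 5.35% in DMSO_wash_exp3 replicate 3 against 2.85 and 2.28% in replicates 1 and 2. Pim1, a STAT5 target used as a read-out of JAK2 activity, differed from DMSO by −3.20 log2 units in CHZ_treated and −2.84 in Ruxo_treated, and by 0.14 and 0.10 in the CHZ868 and ruxolitinib washouts.

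Glycolysis turns glucose into pyruvate in the cytosol. Transporters of the Slc2a family bring glucose in, hexokinases trap it as glucose 6-phosphate, and phosphofructokinase makes the committing step, which fructose 2,6-bisphosphate made by the Pfkfb enzymes accelerates. Pyruvate is either reduced to lactate by lactate dehydrogenase and exported by Slc16a transporters, or passed to mitochondria through the pyruvate dehydrogenase complex, which the Pdk kinases switch off. Glucose 6-phosphate can instead enter the pentose phosphate pathway, whose oxidative arm yields NADPH and whose non-oxidative arm makes ribose phosphate and returns carbon to glycolysis. Dividing blood cells driven by cytokine signalling use these routes heavily, and several of the genes are known targets of HIF-1 and MYC.

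The members spanned a wide range of levels in DMSO_treated cells. Divided by the length of the principal transcript, Gapdh, which oxidises glyceraldehyde 3-phosphate, was highest at 9.82 ± 0.03 log2 CPM per kilobase (SD, n = 3), followed by the aldolase gene Aldoa at 9.57, the pyruvate kinase gene Pkm at 9.18 and the lactate dehydrogenase gene Ldha at 9.15. Eno1 (8.89), Pgk1 (8.74), Gpi1 (8.15) and Tpi1 (7.79) came next on the same scale. Pkm and Ldha overlapped between libraries, as did 10 of the 31 pairs of neighbours in this order, and 21 pairs did not. Within steps that have several genes, the order of levels per kilobase was Slc2a3 (6.65) above Slc2a1 (4.85), Hk1 (6.50) above Hk2 (5.65), Pfkp (7.17) above Pfkl (5.84) and Pfkm (3.64), and Pdk3 (5.42) above Pdk1 (3.80). Pfkfb3 (3.35) and Pfkfb4 (2.53) were the lowest of the 32. The abundant enzymes have near-identical copies in the GENCODE annotation of GRCm38, 177 for Gapdh, 13 for Ldha, 8 for Pkm and 6 each for Aldoa and Eno1, between which reads can be split, so their levels are uncertain. Pfkp shares 748 exonic bases with its neighbour Pitrm1, Pgls 776 bases with an overlapping gene, and Rpe 558 bases with Kansl1l, and reads there cannot be assigned with certainty. The same limit holds for Pkm (767 shared bases), Gpi1 (741), Pdha1 (603), G6pdx (418), Pfkm (up to 341) and Hif1a (up to 330). Shorter overlaps were annotated for several other members.

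**Figure D1:**
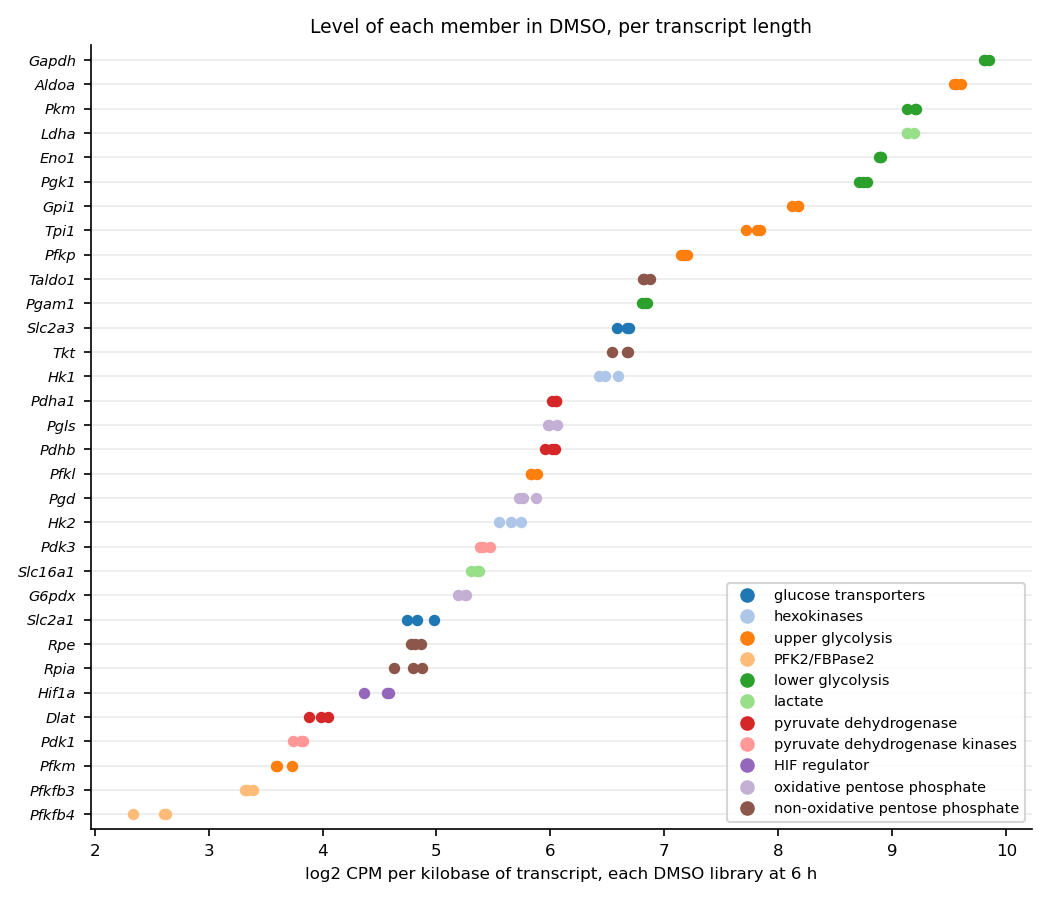
Level of the 32 members in the 3 DMSO_treated libraries, on the x axis as log2 CPM per kilobase of transcript, with each point a library and colour the role. Gapdh (9.82) and Aldoa (9.57) stand at the top and Pfkfb3 (3.35) and Pfkfb4 (2.53) at the bottom, while Slc2a3, Hk1 and Pfkp lie above the other genes of their step.

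After 6 h of CHZ868 the pathway did not move as a block. Of 32 members, 10 were higher and 10 lower than in DMSO_treated (limma-trend, adjusted p under 0.05), where 26.8% of the 11670 genes tested were higher and 26.4% lower, so the share of members in either direction was close to that of all genes. The median log2 fold change of the members was 0.02, against −0.01 over all genes, and the median absolute change was 0.28 against 0.34. With quantile normalization the split was 7 higher and 11 lower. In bulk RNA such as this, fewer cells of a type and less RNA per cell cannot be told apart. The 4 members that fell most were the glucose transporter Slc2a3, the regulatory enzyme Pfkfb3, the lactate exporter Slc16a1 and the hexokinase Hk2. The 4 that rose most were the pyruvate dehydrogenase kinase Pdk3, the transcription factor Hif1a, the glucose 6-phosphate dehydrogenase G6pdx and Pkm.

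**Figure D2:**
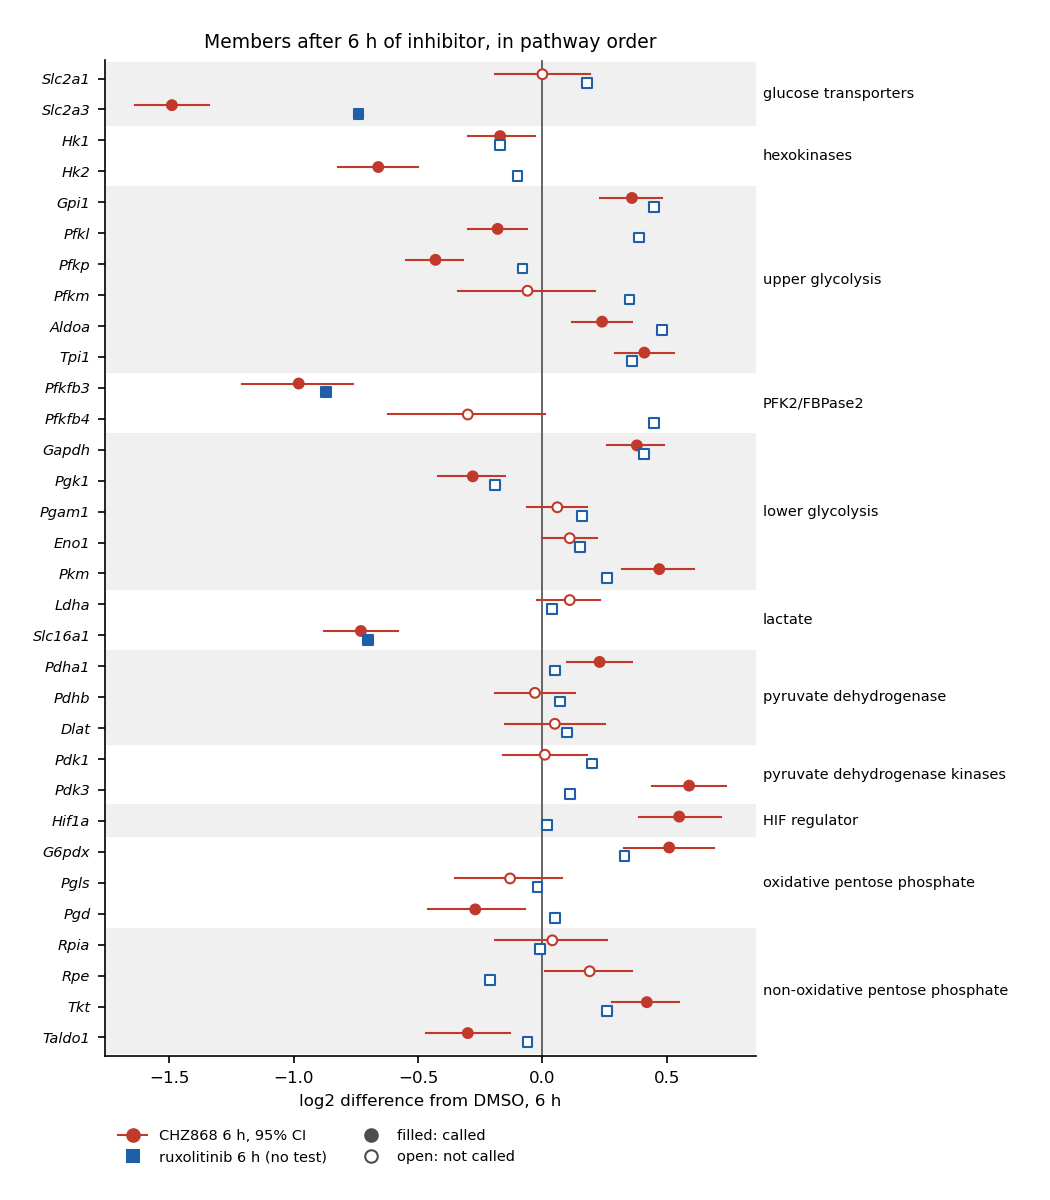
Log2 difference from DMSO_treated (x axis) after 6 h of CHZ868 (red circles, fitted value with 95% confidence interval) and of ruxolitinib (blue squares, difference of median-centred means with no test) for the 32 members in pathway order. Filled symbols passed an adjusted p of 0.05 (CHZ868) or differed by at least 0.58 with no overlap (ruxolitinib), and Slc2a3, Pfkfb3 and Slc16a1 are filled and below zero for both inhibitors.

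Of the 4 members of glucose entry, Slc2a3 and Hk2 fell most. Slc2a3 (GLUT3, ENSMUSG00000003153.10, chr6:122727809-122801640, minus strand, GRCm38) had 8.66, 8.68 and 8.56 log2 CPM in the DMSO_treated libraries and 6.99, 7.21 and 7.24 in the CHZ_treated libraries. The groups were far apart, and Slc2a3 fell by 1.49 on the log2 scale, a 2.8-fold lower level (SE 0.07, 95% CI −1.64 to −1.34, limma-trend, adjusted p = 2.92e-10). Slc2a1 (GLUT1), the other glucose transporter among the members, overlapped between the groups and differed by 0.00 (95% CI −0.19 to 0.19). Hk2 (chr6:82725025-82774454, minus strand), the inducible hexokinase, had 8.20, 8.12 and 8.02 log2 CPM in DMSO_treated and 7.30, 7.56 and 7.51 in CHZ_treated. All 3 treated libraries were below all controls, and Hk2 fell by 0.66 on the log2 scale (SE 0.07, limma-trend, adjusted p = 3.21e-06). Hk1, the constitutive hexokinase, differed by −0.17 (limma-trend, adjusted p = 0.0348), a call that was kept in 9 of 15 alternatives and lost when CHZ_treated replicate 1 or 2, or DMSO_treated replicate 1 or 2, was left out (−0.12 to −0.18).

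At the phosphofructokinase step every call was downward. Pfkp, the platelet-type and here most abundant phosphofructokinase, had 9.22, 9.20 and 9.25 log2 CPM in DMSO_treated and 8.72, 8.81 and 8.85 in CHZ_treated, and fell by 0.43 on the log2 scale (SE 0.05, limma-trend, adjusted p = 1.04e-05). Pfkl, the liver-type gene, fell by 0.18 (limma-trend, adjusted p = 0.014), which was lost without DMSO_treated replicate 3 (adjusted p = 0.0731), and the muscle-type Pfkm overlapped between groups (−0.06, 95% CI −0.34 to 0.21). Pfkfb3 (chr2:11471433-11554077, minus strand), which makes fructose 2,6-bisphosphate, had 5.54, 5.60 and 5.56 log2 CPM in DMSO_treated and 4.47, 4.60 and 4.67 in CHZ_treated. It fell by 0.98 on the log2 scale, a 1.98-fold lower level (SE 0.11, 95% CI −1.21 to −0.76, limma-trend, adjusted p = 2.05e-06). Its paralog Pfkfb4 differed by −0.30 and did not pass (95% CI −0.62 to 0.01, limma-trend, adjusted p = 0.0955).

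Of the 8 other glycolytic enzymes between glucose 6-phosphate and pyruvate, 5 rose and 1 fell, where 26.8% of all genes tested were higher and 26.4% lower. The phosphofructokinase genes, given above, are not among these 8, and this grouping is not 1 of the gene lists that were counted. In the counted list of upper glycolysis, which holds them, 3 of 6 genes tested rose and 2 fell. In that of lower glycolysis 2 of 5 rose and 1 fell. Tpi1, the triose phosphate isomerase, had 8.52, 8.49 and 8.40 log2 CPM in DMSO_treated and 8.84, 8.91 and 8.91 in CHZ_treated (log2 fold change 0.41, SE 0.06, limma-trend, adjusted p = 2.21e-05). Gapdh had 10.31, 10.35 and 10.30 against 10.64, 10.73 and 10.73 (0.38, SE 0.06, adjusted p = 4.05e-05). Pkm (chr9:59656368-59679375, plus strand), which makes pyruvate, had 10.49, 10.48 and 10.41 against 10.77, 10.96 and 11.04 (0.47, SE 0.07, adjusted p = 4.15e-05). In these 3 genes every CHZ_treated library lay above every DMSO_treated library. Gpi1 (0.36, adjusted p = 0.000145) and Aldoa (0.24, adjusted p = 0.00241) also rose in the limma-trend test. With quantile normalization, however, Aldoa differed by 0.00 (adjusted p = 0.961) and Gapdh by 0.11 (adjusted p = 0.0591), so whether these 2 enzymes passed depends on the scaling. Tpi1 (0.25, adjusted p = 0.000993), Gpi1 (0.17, adjusted p = 0.0127) and Pkm (0.15, adjusted p = 0.0315) passed in that limma-trend fit with smaller rises. Pgk1, which makes the first ATP of the lower pathway, fell by 0.28 on the log2 scale (limma-trend, adjusted p = 0.00136). Pgam1 (0.06) and Eno1 (0.11, 95% CI 0.00 to 0.22) did not pass. Across the same libraries the share of mitochondrial transcripts was higher in CHZ_treated, as given above, and its part in these small rises was not tested.

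Genes at the fork between lactate and mitochondrial pyruvate moved in both directions. Slc16a1 (MCT1, chr3:104638668-104658462, plus strand), which carries lactate across the plasma membrane, had 7.51, 7.51 and 7.44 log2 CPM in DMSO_treated and 6.62, 6.85 and 6.80 in CHZ_treated. It fell by 0.73 on the log2 scale with no overlap, a 1.66-fold lower level (SE 0.07, 95% CI −0.88 to −0.58, limma-trend, adjusted p = 7.46e-07). Ldha, which makes lactate, overlapped between the groups (0.11, 95% CI −0.02 to 0.23, adjusted p = 0.13), and was called lower with quantile normalization but higher without CHZ_treated replicate 3. Pdk3 (chrX:93764607-93832201, minus strand), which inhibits pyruvate dehydrogenase, had 6.55, 6.47 and 6.49 log2 CPM in DMSO_treated and 7.18, 7.07 and 7.03 in CHZ_treated. It rose by 0.59, a 1.5-fold higher level (SE 0.07, limma-trend, adjusted p = 4.97e-06), whereas its paralog Pdk1 differed by 0.01 (95% CI −0.16 to 0.18). Of the pyruvate dehydrogenase subunits, Pdha1 rose by 0.23 (limma-trend, adjusted p = 0.00576), a call lost with quantile normalization (0.13, adjusted p = 0.0889), and Pdhb (−0.03) and Dlat (0.05) overlapped between the groups.

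Hif1a (chr12:73901375-73947530, plus strand), the oxygen-regulated transcription factor of many glycolytic genes, had 6.81, 6.82 and 6.60 log2 CPM in DMSO_treated and 7.33, 7.20 and 7.36 in CHZ_treated. Its RNA rose by 0.55, a 1.47-fold higher level (SE 0.08, limma-trend, adjusted p = 2.39e-05). The HIF-1α protein, which is controlled by its stability, was not measured here.

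The pentose phosphate genes also divided within each arm. G6pdx (chrX:74409483-74429194, minus strand), the entry enzyme of the oxidative arm, had 6.67, 6.60 and 6.67 log2 CPM in DMSO_treated and 7.05, 7.05 and 7.37 in CHZ_treated, and rose by 0.51 (SE 0.08, limma-trend, adjusted p = 0.000125). Pgd, the second dehydrogenase of that arm, fell by 0.27 with overlapping groups (limma-trend, adjusted p = 0.023, kept in 11 of 15 alternatives), and Pgls, between them, differed by −0.13 (adjusted p = 0.283). In the non-oxidative arm the transketolase Tkt had 8.37, 8.36 and 8.23 log2 CPM against 8.66, 8.83 and 8.72, and rose by 0.42 (SE 0.06, limma-trend, adjusted p = 5.25e-05). The transaldolase Taldo1 fell by 0.30 (limma-trend, adjusted p = 0.00625). Rpia (0.04) and Rpe (0.19, adjusted p = 0.0673), which isomerise the pentose phosphates, did not pass.

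Ruxolitinib at the same dose and time was set beside these values. Ruxo_treated libraries are in a table that was normalized separately, so the median over 11624 shared genes was subtracted within every library and no test was run. Both inhibitors are compared with the same 3 DMSO_treated libraries. A member was counted where it differed by at least 0.58 log2 units (1.5-fold) with no overlap. By this rule 3 of 32 members were lower, Pfkfb3, Slc2a3 and Slc16a1, and 0 were higher, where 7.32% of the shared genes were lower and 4.2% higher. The groups did not overlap at any size for 17 members, 11 higher and 6 lower, against 44.6% of the shared genes, both directions together. The share of all genes in each direction without overlap was not counted. Regardless of overlap, 65.6% of the members and 54.3% of the shared genes lay above zero. The median difference of the members was 0.09, against 0.04 over all shared genes.

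Pfkfb3 had centred values of 0.29, 0.35 and 0.31 in DMSO_treated and −0.61, −0.46 and −0.58 in Ruxo_treated, a difference of −0.87 beside −0.98 for CHZ868. Slc2a3 had 3.41, 3.42 and 3.32 against 2.89, 2.24 and 2.81, a difference of −0.74 beside −1.49. Slc16a1 had 2.26, 2.26 and 2.20 against 1.80, 1.10 and 1.71, a difference of −0.70 beside −0.73. In Slc2a3 and Slc16a1 the lowest value was that of replicate 2, and without it the differences were −0.54 and −0.49, below the 0.58 used here, while Pfkfb3 stayed at −0.91. Pfkfb4 then differed by 0.61 and was counted as higher, so that without replicate 2 there were 2 such members.

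Several members that changed with CHZ868 lay near DMSO with ruxolitinib. Hk2 had centred values of 2.83, 2.64 and 2.80 in Ruxo_treated and 2.95, 2.86 and 2.77 in DMSO_treated, overlapping groups with a difference of −0.10, beside 2.08, 2.33 and 2.29 in CHZ_treated. Pfkp had 3.90, 3.92 and 3.87 in Ruxo_treated, all just below the lowest DMSO_treated value of 3.95, a difference of −0.08 beside −0.43 for CHZ868. Pdk3 (1.26, 1.56 and 1.28 against 1.30, 1.22 and 1.25) and Hif1a (1.43, 1.90 and 1.22 against 1.57, 1.57 and 1.35) overlapped with DMSO_treated, with differences of 0.11 and 0.02, and in each the high value was that of replicate 2. These inhibitor-to-inhibitor differences are given side by side and were not tested.

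Of the same 8 glycolytic enzymes, 4 lay above DMSO without overlap with ruxolitinib, where 44.6% of the shared genes did not overlap, both directions together. The difference was 0.48 for Aldoa, 0.45 for Gpi1, 0.41 for Gapdh and 0.26 for Pkm. Pgam1 (0.16), Eno1 (0.15) and Pgk1 (−0.19) overlapped with DMSO_treated. Tpi1 had 3.78, 3.25 and 3.73 in Ruxo_treated, a difference of 0.36, and only replicate 2 fell within the DMSO_treated values of 3.28, 3.24 and 3.16. Of the pentose phosphate genes, G6pdx (1.67, 1.89 and 1.61 against 1.42, 1.35 and 1.42) and Tkt (3.30, 3.33 and 3.34 against 3.12, 3.10 and 2.98) lay above DMSO without overlap, by 0.33 and 0.26. In these libraries the members together took 1.39, 1.2 and 1.42% of the listed CPM, against 1.21 to 1.24% in DMSO_treated, the second value being that of replicate 2.

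Pfkl, Pfkfb4 and Rpe lay on opposite sides of DMSO_treated with the 2 inhibitors, and in each every Ruxo_treated library lay on 1 side of DMSO_treated and every CHZ_treated library on the other. Pfkl had centred values of 3.03, 2.62 and 3.00 with ruxolitinib, 2.48, 2.48 and 2.53 with DMSO and 2.36, 2.32 and 2.35 with CHZ868. Pfkfb4 had −0.33, −0.79 and −0.25 with ruxolitinib, −0.80, −1.09 and −0.82 with DMSO and −1.27, −1.17 and −1.09 with CHZ868, so that replicate 2 of ruxolitinib was only just above the controls and the nearest CHZ868 and DMSO values were equal to 2 decimals. Rpe, with the opposite signs, had 0.81, 0.76 and 0.79 with ruxolitinib, 0.97, 0.99 and 1.05 with DMSO and 1.22, 1.34 and 1.09 with CHZ868. The difference between the inhibitors was not tested in these 3 members. With ruxolitinib alone 44.6% of the shared genes did not overlap with DMSO_treated, and the share with this opposite pattern was not counted.

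**Figure D3:**
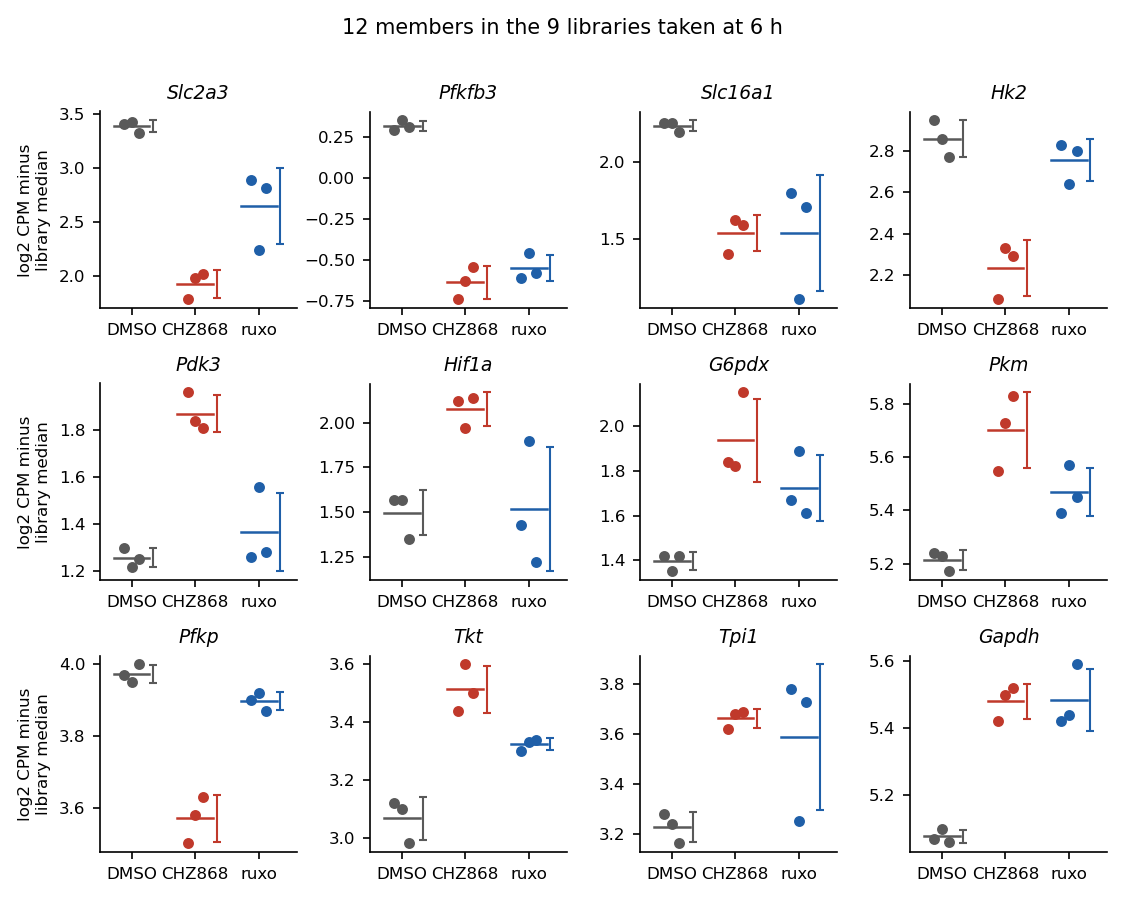
The 12 members with the largest changes past the threshold after 6 h of CHZ868, in the 9 libraries taken at 6 h, on the y axis as log2 CPM minus the library median over the shared genes, with a scale of its own in each panel. Points are libraries, horizontal lines the means of 3, and the bars beside them ± 1 SD. CHZ868 and ruxolitinib both lie below DMSO for Slc2a3, Pfkfb3 and Slc16a1, whereas Hk2 and Pfkp are low with CHZ868 and close to DMSO with ruxolitinib.

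Upstream bases are shown for 6 of these 12 members, namely 4 that fell, Gapdh and Hif1a. Sequences were kept where at least 200 bases before a RefSeq start lay outside GENCODE exons of the gene, whatever motifs they held. They are RefSeq sequences of GRCm38.p6, written 5′ to 3′ on the strand of the gene and ending at the base before the RefSeq start, or 6 bases short of it for Pfkp and 11 for Pfkfb3: Hk2, chr6:82774455-82774704, minus; Pfkp, chr13:6648778-6649021, minus; Pfkfb3, its second annotated start, chr2:11502102-11502340, minus; Slc16a1, chr3:104638414-104638663, plus; Gapdh, chr6:125165774-125166023, minus; Hif1a, chr12:73907617-73907866, plus. Capitals mark every CACGTG (the E-box bound by MYC and MAX), ACGTG or GCGTG (the core of the hypoxia response element) on either strand, so that ACGTG on the other strand reads CACGT and GCGTG reads CACGC.
Hk2: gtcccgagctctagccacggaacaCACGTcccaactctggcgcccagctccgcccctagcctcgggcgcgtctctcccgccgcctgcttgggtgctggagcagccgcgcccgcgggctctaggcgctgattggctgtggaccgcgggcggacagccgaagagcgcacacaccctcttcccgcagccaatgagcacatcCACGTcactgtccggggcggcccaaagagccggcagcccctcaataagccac
Pfkp: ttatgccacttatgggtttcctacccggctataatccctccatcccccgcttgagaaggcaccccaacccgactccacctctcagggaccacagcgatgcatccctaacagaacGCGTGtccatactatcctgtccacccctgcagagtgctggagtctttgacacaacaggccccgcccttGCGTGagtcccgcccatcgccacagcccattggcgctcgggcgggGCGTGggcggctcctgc
Pfkfb3: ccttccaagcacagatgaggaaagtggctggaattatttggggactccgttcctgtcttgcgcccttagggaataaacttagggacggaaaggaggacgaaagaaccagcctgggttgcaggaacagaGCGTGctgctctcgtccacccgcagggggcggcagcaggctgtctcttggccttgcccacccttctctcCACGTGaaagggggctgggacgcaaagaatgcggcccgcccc
Slc16a1: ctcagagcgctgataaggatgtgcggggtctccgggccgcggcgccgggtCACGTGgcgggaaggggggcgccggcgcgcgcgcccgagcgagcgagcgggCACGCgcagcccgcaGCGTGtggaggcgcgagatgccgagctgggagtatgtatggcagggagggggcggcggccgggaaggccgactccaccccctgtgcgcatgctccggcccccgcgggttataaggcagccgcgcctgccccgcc
Gapdh: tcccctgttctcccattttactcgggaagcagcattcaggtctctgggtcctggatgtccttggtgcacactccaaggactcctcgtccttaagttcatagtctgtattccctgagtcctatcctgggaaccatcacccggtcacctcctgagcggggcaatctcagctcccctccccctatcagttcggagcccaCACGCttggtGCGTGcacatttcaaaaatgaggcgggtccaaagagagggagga
Hif1a: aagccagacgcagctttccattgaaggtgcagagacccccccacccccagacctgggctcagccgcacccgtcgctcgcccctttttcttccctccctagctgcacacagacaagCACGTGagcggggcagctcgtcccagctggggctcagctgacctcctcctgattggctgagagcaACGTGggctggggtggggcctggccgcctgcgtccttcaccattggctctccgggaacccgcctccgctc
The Pfkfb3, Gapdh and Hif1a stretches lie inside the GENCODE span of their own gene, which begins further upstream than the RefSeq start used, and the other 3 lie outside it. The E-box begins 53 bases before the RefSeq start in Pfkfb3, 200 in Slc16a1 and 135 in Hif1a, and each E-box contains ACGTG on both strands. Over windows from 250 bases before to 50 after each start, 31 of the 32 members matched, with 44 windows, and Slc2a3 had no entry. An E-box lay in 5 of the 44 windows (11.4%), against 7.15% of all 32851. Either hypoxia core lay in 34 of 44 (77.3%), against 43.8% of all. The STAT5 site TTCNNNGAA lay in 1 of 44 (2.27%, the muscle-type gene Pfkm), against 8.3% of all. Members with a hypoxia core include genes that rose (Gapdh, Pdk3, G6pdx) and genes that fell (Hk2, Pfkp, Slc16a1). The 32851 windows were not limited to genes measured here and were not matched to the members for base composition. No test of these shares was run, so they do not show an enrichment of sites in the pathway. These matches are descriptions of the letters, and no binding was measured.

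After washout of CHZ868, 1 of 32 members was called, Pgk1, where 4.02% of the 11355 genes tested were called (limma-trend, adjusted p under 0.05), and 12 members had an unadjusted p under 0.05, as did 24.4% of all genes. Pgk1 had 10.31, 10.31 and 10.24 log2 CPM in CHZ_wash and 9.81, 10.00 and 9.42 in DMSO_wash_exp3, and rose by 0.54 (SE 0.13, 95% CI 0.25 to 0.83, adjusted p = 0.0483). It passed by little, and the call was lost without the mean-variance trend (adjusted p = 0.123). The next members by p did not pass. Slc16a1 had 8.45, 8.46 and 8.47 against 8.07, 8.26 and 7.78 (0.42, adjusted p = 0.0585), and Slc2a3 had 9.73, 9.69 and 9.62 against 9.28, 9.44 and 8.71 (0.53, adjusted p = 0.0746). G6pdx had 7.53, 7.23 and 7.22 against 7.56, 7.60 and 7.66 (−0.28, adjusted p = 0.115), and Tkt 8.58, 8.49 and 8.49 against 8.78, 8.88 and 8.63 (−0.24, adjusted p = 0.13). In all 5 of these members the groups did not overlap, which their choice by smallest p favours. For Slc16a1, Slc2a3 and Pgk1 the controls themselves were widely spread.

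The number of calls moved with single control libraries, over all genes as well as over the members. DMSO_wash_exp3 replicate 3 was the lowest control for Pgk1, Slc16a1, Slc2a3 and Tkt. Without it 7 of 32 members were called, where 12.6% of all genes were called, with Slc2a3 (0.32, adjusted p = 0.00964), Slc16a1 (0.29, adjusted p = 0.015) and Pgk1 (0.38, adjusted p = 0.00477) higher, and Tkt (−0.31, adjusted p = 0.00881), Pgls (−0.36, adjusted p = 0.0239), Pkm (−0.29, adjusted p = 0.0336) and Gpi1 (−0.22, adjusted p = 0.0436) lower in the limma-trend fit. Without DMSO_wash_exp3 replicate 2, 4 were called, where 11.4% of all genes were, all higher, namely Pgk1, Slc16a1, Slc2a3 and Pgam1. Leaving out any 1 of the other 4 libraries gave 0 calls among the members and at most 1 over all genes.

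After washout of ruxolitinib 0 of 32 members were called, where 0.0229% of the 13085 genes tested, 3 genes, were called (limma-trend, adjusted p under 0.05). Vooma weights also called 0 members, and 12 had an unadjusted p under 0.05, as did 7.03% of all genes. The changes were small and mostly in one direction, with 27 of 32 members above zero (84.4%) against 50% of all genes, and a median of 0.07 against 0.00. Across the alternatives, those that leave out a library included, 24 to 27 members were above zero, with a median of 0.04 under quantile normalization. Tpi1 had 9.38, 9.34 and 9.36 log2 CPM in Ruxo_wash and 9.23, 9.25 and 9.22 in DMSO_wash (0.12, adjusted p = 0.303). Slc2a3 had 7.71, 7.68 and 7.65 against 7.49, 7.51 and 7.55 (0.16, adjusted p = 0.374). Eno1 had 9.02, 9.01 and 9.01 against 8.92, 8.90 and 8.89 (0.11, adjusted p = 0.355), Pgk1 9.92, 9.91 and 9.89 against 9.83, 9.82 and 9.81 (0.09, adjusted p = 0.376), and Ldha 10.72, 10.70 and 10.72 against 10.65, 10.63 and 10.62 (0.08, adjusted p = 0.374). In these 5 members, the 5 with the smallest p, every Ruxo_wash library lay above every DMSO_wash library by a narrow margin. A choice by smallest p favours such separation, which therefore adds nothing to the p values. Ldha turned to −0.02 with quantile normalization.

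**Figure D4:**
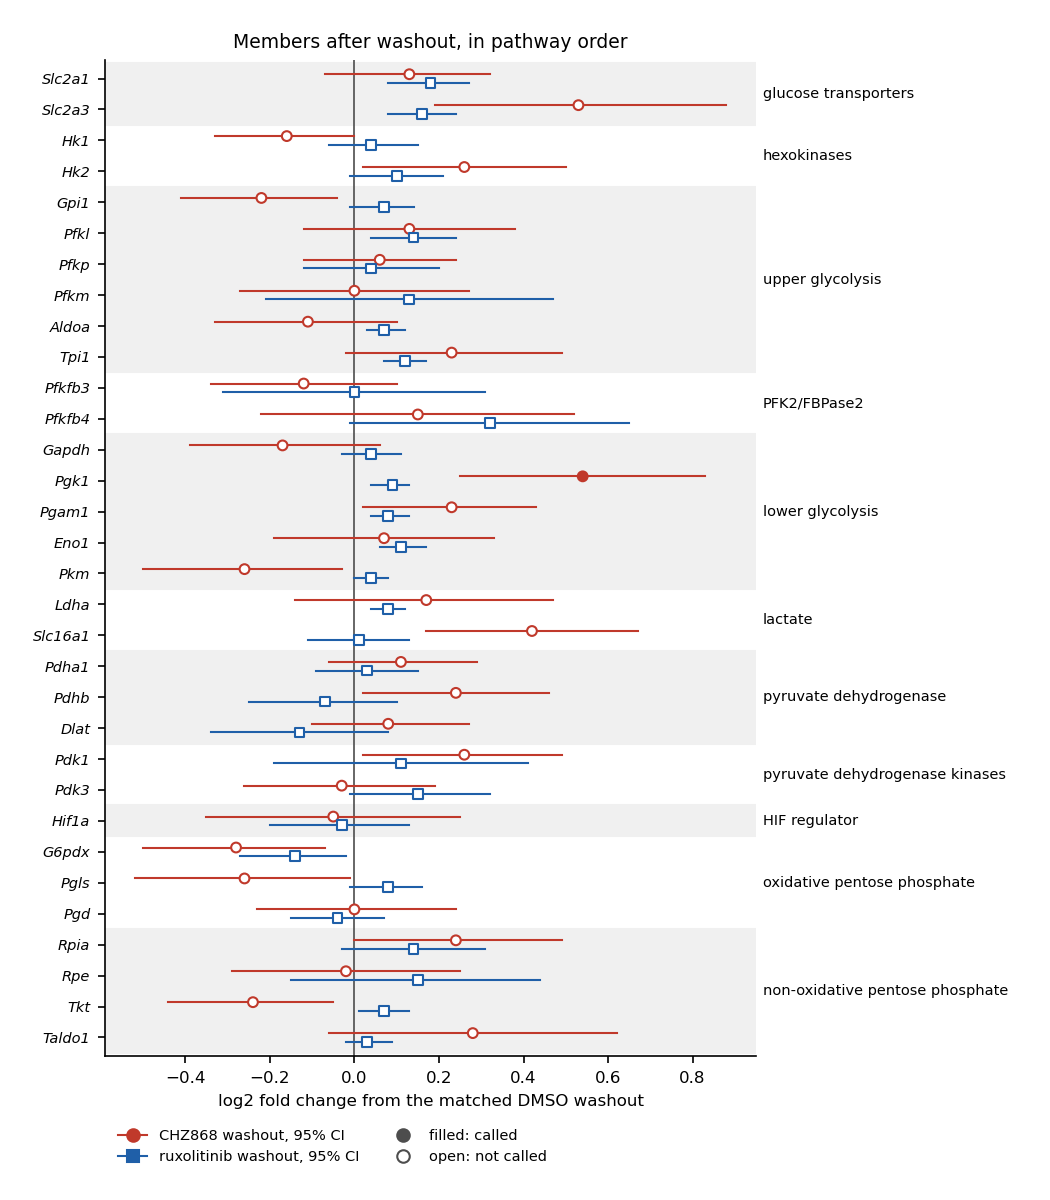
Log2 fold change from the matched DMSO washout (x axis) with 95% confidence interval for the 32 members in pathway order, after washout of CHZ868 (red circles) and of ruxolitinib (blue squares). Pgk1 after CHZ868 is the only filled symbol (adjusted p under 0.05), and 27 of the 32 ruxolitinib values lie above zero.

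The washout effects were also set against each other in 1 fit, ruxolitinib minus CHZ868, in which the inhibitor and the experiment cannot be told apart. No member passed (0 of 32, where 1.9% of the 10078 genes tested were called), also without the mean-variance trend, and 8 had an unadjusted p under 0.05, as did 18.9% of all genes. The smallest p values belonged to Gpi1 (0.29, adjusted p = 0.0641), Tkt (0.31, adjusted p = 0.0922), Slc16a1 (−0.41, adjusted p = 0.115), Pgk1 (−0.46, adjusted p = 0.128) and Pkm (0.30, adjusted p = 0.135) in the limma-trend fit. Without DMSO_wash_exp3 replicate 3, 6 members were called, where 5.26% of all genes were, with Pkm, Pgls, Tkt, Aldoa and Gpi1 higher and Pgk1 lower. Without replicate 2, 3 were called, where 6.23% of all genes were, with Gpi1 higher and Slc16a1 and Pgk1 lower.

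The effects of CHZ868 at 6 h and after washout were compared in 1 fit. The effect at 6 h minus the effect after washout passed for 15 of 32 members, 8 higher and 7 lower, where 23.2% of the 11175 genes tested were higher and 23.8% lower (limma-trend, adjusted p under 0.05). With quantile normalization 5 were higher and 10 lower. Slc2a3 differed most, by −2.02 (SE 0.18, adjusted p = 3.02e-07), being 1.49 below DMSO at 6 h and 0.53 above its control after washout. That washout rise did not pass its own limma-trend test (adjusted p = 0.0746) and was 0.32 without DMSO_wash_exp3 replicate 3. Slc16a1 (−1.15, adjusted p = 6.34e-06), Hk2 (−0.92, adjusted p = 6.69e-05), Pfkfb3 (−0.86, adjusted p = 7.34e-05) and Pgk1 (−0.83, adjusted p = 0.000409) also had the lower effect at 6 h. G6pdx (0.79, adjusted p = 0.000175), Tkt (0.66, adjusted p = 0.000149) and Pdk3 (0.62, adjusted p = 0.000642) had the higher effect at 6 h. The time under inhibitor and the table cannot be told apart in this contrast.

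**Figure D5:**
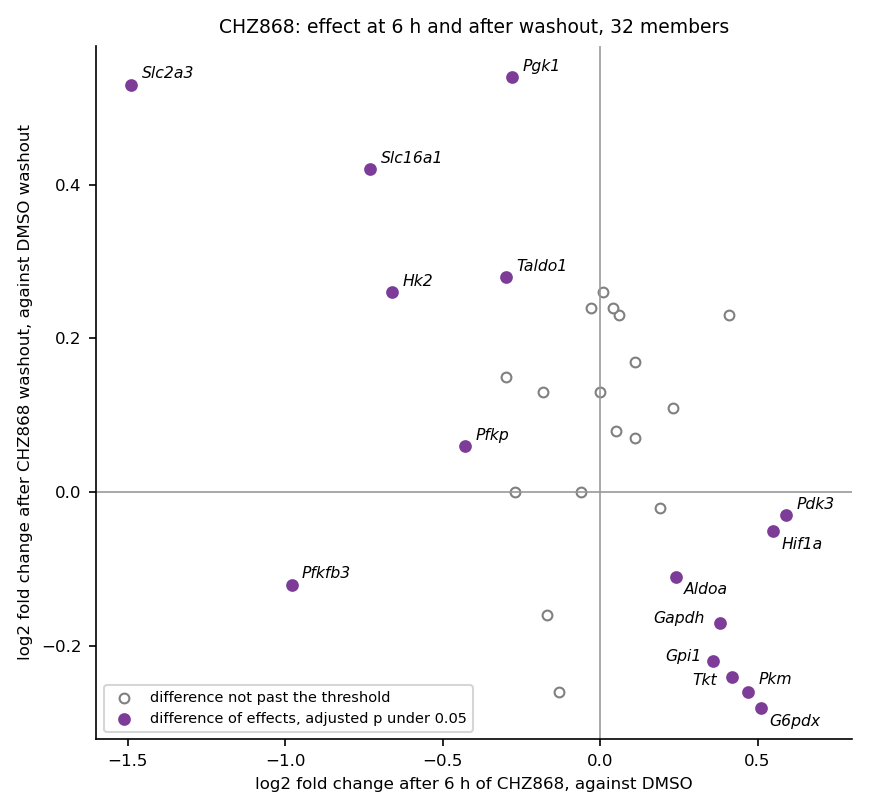
Log2 fold change after 6 h of CHZ868 (x axis, against DMSO_treated) and after CHZ868 washout (y axis, against DMSO_wash_exp3) for the 32 members. Filled points are the 15 members whose effects differed (adjusted p under 0.05), and Slc2a3 lies at −1.49 and 0.53, of which the washout value did not pass its own test.

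Genes next to the pathway were counted from a list of 59, of which 37 were tested at 6 h of CHZ868. Of these 6 rose and 12 fell, where 26.8% of all genes tested were higher and 26.4% lower, and 19 did not pass. Their median was −0.14, against −0.01 over all genes. Those past 1 log2 unit were the glucose transporters Slc2a12 (−1.50, limma-trend, adjusted p = 0.00244) and Slc2a6 (−1.13, adjusted p = 0.00211), the hexokinase Hk3 (−1.42, adjusted p = 3.78e-08) and the gluconokinase Idnk (−1.03, adjusted p = 1.92e-05). With ruxolitinib the same 4 genes differed by −1.29, −1.27, −1.05 and −0.95. After washout 0 of 36 neighbours tested were called for CHZ868 and 0 of 37 for ruxolitinib, where 4.02% and 0.0229% of all genes were called. Slc2a12 was not tested in either washout, and at 6 h its level was low. Its mean log2 CPM was 1.02 in CHZ_treated (SD 0.33) and 2.52 in DMSO_treated (SD 0.54).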

How the data were processed

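Per the study's methods, the authors pseudo-aligned the reads to GRCm38 with kallisto, summed them per gene with biomaRt, removed genes below a CPM minimum, applied TMM in edgeR and tested with voom and limma. The submitters' processing notes name STAR 2.7.3a, edgeR 4.0.16 and GRCm39 instead, and which pipeline made each table is not given in the sources used here. The unit of all deposited tables is log2 CPM, and the authors added a small constant before taking the logarithm. In 3 tables the low values are whole multiples of 1 read (tolerance 0.1 read), from which depth was recovered. The ruxolitinib washout table holds no such multiples.

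Each comparison within a table used limma-trend (limma 3.58.1, R 4.3.3) on the deposited log2 CPM, on the groups compared, two-sided, with p adjusted after Benjamini and Hochberg across every gene in the fit and called under 0.05. Differences of effects were fitted with 1 mean per group over the genes that both tables hold. The fits were tried on simulated data with changes of 1 log2 unit, which does not measure their power for the smaller changes given here. Ruxo_treated and DMSO_treated, held in separate tables, were compared as median-centred values without a test. Library values are given for the 12 members with the largest changes past the threshold after 6 h of CHZ868, for the same members with ruxolitinib, and for the members past the threshold in a washout or, where fewer than 3 passed, the 5 with the smallest p. Values of other members were added where an inhibitor pair or a library made them of interest, after they had been seen. The members, gene lists and tests were chosen with earlier results of these data known. The labels do not say that replicates were separate cultures, so p-values measure the spread between these libraries, which may be technical. All 15 replicate pairs with recovered reads differed by more than counting noise (variance 2.19 to 34.89 times as large). Gene positions and transcript lengths came from GENCODE for GRCm38, near copies (at least 90% identity over 300 bases) from BLAST 2.17.0, and promoter sequences from RefSeq. Alternatives were limma without the trend, vooma weights, voom on the recovered reads, median centring, quantile normalization, a mean log2 CPM of at least 3, log2(CPM + 1), log2(CPM + 5), a replicate block, an adjusted p of 0.01 and leaving out each library in turn. Of the cell type markers chosen, 1 is not reported here.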

Additional observations from a re-analysis of the deposited data

Results flagged for a closer look

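The effect of CHZ868 at 6 h differed from its effect after washout in 15 members by the limma-trend test of that difference (6 h minus washout, adjusted p under 0.05). The difference was −2.02 for Slc2a3, −1.15 for Slc16a1, −0.92 for Hk2, −0.86 for Pfkfb3, −0.83 for Pgk1, −0.58 for Taldo1 and −0.49 for Pfkp. It was 0.79 for G6pdx, 0.73 for Pkm, 0.66 for Tkt, 0.62 for Pdk3, 0.60 for Hif1a, 0.58 for Gpi1, 0.55 for Gapdh and 0.36 for Aldoa. With quantile normalization Pkm, Gapdh and Aldoa did not pass. Taldo1 did not pass without the mean-variance trend (adjusted p = 0.0555) or without CHZ_treated replicate 3 (adjusted p = 0.0541).

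Pfkl (0.39), Pfkfb4 (0.45) and Rpe (−0.21) differed from DMSO_treated with ruxolitinib in the direction opposite to CHZ868 (−0.16, −0.28 and 0.21 on the same centred scale), with every library of each inhibitor on its own side of the controls. For Pfkfb4 this separation was minimal. Ruxo_treated replicate 2 had −0.79 against −0.80 in the highest control, and the nearest CHZ868 and DMSO values were both −1.09. The difference between the inhibitors was not tested, because the libraries are in tables that were normalized separately. The difference from DMSO with CHZ868 passed its own limma-trend test for Pfkl, and not for Pfkfb4 and Rpe. The share of all genes with this opposite pattern was not counted, while 44.6% of the shared genes did not overlap with ruxolitinib alone.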

How the results depend on the processing

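After 6 h of CHZ868 the number of members called ranged from 16 (no trend) to 23 (without CHZ_treated replicate 3). Of the 300 values of called members under an alternative, 284 kept their direction and their side of the threshold, 15 no longer passed, and 1 turned, Aldoa with quantile normalization (0.00). After washout of CHZ868, where 1 member was called, 0 were called without the trend, 0 at an adjusted p of 0.01, 2 with the replicate block (Pgk1 and Slc2a3), and 0 to 7 when a library was left out. Over all genes that comparison called 457, and 0 without the trend. In the difference between the washouts, leaving out a library gave 0 to 6 members. In the difference between the CHZ868 effects Aldoa turned to −0.08 with quantile normalization, and after washout of ruxolitinib Ldha turned to −0.02. The cause of these changes was not tested. The replicate block gave 20 members after 6 h of CHZ868 and 0 after washout of ruxolitinib. Libraries with the same number did not deviate together (correlations from −0.07 to 0.09 over the 3 comparisons, with 2, 2 and 0 of 6 libraries closest to their own number). No pairing by number was seen, though with 3 libraries per group a small shared effect could be missed. Voom could not be run on the ruxolitinib washout, whose reads were not recovered. Depth limits Pfkfb4 most, with 87 to 310 reads per library over the 15 with recovered reads.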

Other observations

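Genes known to respond to HIF-1 outside glycolysis moved both ways after 6 h of CHZ868. Of 23 listed, 18 were tested, and 7 rose and 6 fell (limma-trend, adjusted p under 0.05), where 26.8% of all genes were higher and 26.4% lower, with a median of 0.07 against −0.01 over all genes. Bnip3, a mitophagy receptor, rose by 0.81 (adjusted p = 9.38e-08), Mxi1, an antagonist of MYC, by 0.77 (adjusted p = 1.77e-06) and Ndrg1 by 0.66 (adjusted p = 2.11e-06). Vegfa fell by 0.68 on the log2 scale (adjusted p = 2.15e-06) and Fam162a by 0.64 (adjusted p = 0.000249). With ruxolitinib the centred differences were 0.72 for Bnip3, 0.73 for Mxi1, 0.77 for Ndrg1, −0.34 for Vegfa and −0.23 for Fam162a. After washout of CHZ868, 2 of 18 were called, where 4.02% of all genes were, Ankrd37 (0.66, adjusted p = 0.0469) and Higd1a (0.75, adjusted p = 0.0418), both higher, and after washout of ruxolitinib 0 were called, where 0.0229% of all genes were. Of the regulators of HIF and of glucose sensing, 11 of 15 were tested after 6 h of CHZ868, and Arnt, the partner of HIF-1α (0.24, adjusted p = 0.0117), and Txnip, which restrains glucose uptake (0.33, adjusted p = 0.000191), rose, while Hif1an, which hydroxylates HIF-1α (−0.55, adjusted p = 0.000126), the prolyl hydroxylase Egln2 (−0.47, adjusted p = 0.0035) and Myc (−0.27, adjusted p = 0.00272) fell. The other 6 regulators tested did not pass, among them the prolyl hydroxylase Egln1 (−0.02) and Vhl (0.00). With ruxolitinib Myc differed by −0.97, Txnip by −0.10, Arnt by 0.33, Hif1an by 0.05 and Egln2 by −0.17. Hif1an and Egln2 overlapped there with DMSO_treated. These genes were named after their values were seen.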
